A study of Mus musculus with 11 samples.

Results

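Insulin-like growth factor (IGF) signalling genes were followed in primary neurospheres (neural stem and progenitor cells grown in suspension as spheres) from the brain of mouse embryos at E15.5. The genes are the binding protein genes Igfbp2, Igfbp3, Igfbp4 and Igfbp5, the receptor genes Igf1r and Insr, and the receptor substrate genes Irs1 and Irs2. They were taken by name, with earlier results of these data known, and they make up 8 of the 53453 gene rows of the deposited table. RNA sequencing covered 5 libraries with Klf5 overexpression and 6 control libraries whose treatment is labelled as none. Klf5 is a Kruppel-like transcription factor with zinc fingers. The sources used here do not give how its level was raised, nor the strain or sex of the embryos. Every library was taken as 1 embryo, because the labels' protocol counts as many embryos as there are libraries.

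In this pathway, the ligands Igf1 and Igf2 bind the receptor tyrosine kinase made from Igf1r, while insulin, and also Igf2, bind the one made from Insr. The active receptors phosphorylate the docking proteins Irs1 and Irs2, which recruit PI3-kinase and so lead to Akt, mTOR and the FoxO transcription factors. Secreted binding proteins hold the ligands in the extracellular fluid, where they can withhold or deliver them, and proteases release the ligands by cutting the binding proteins. In embryonic brain the pathway is known for its part in the growth and survival of neural progenitors, and Igf2 is known to come largely from the choroid plexus, leptomeninges and vessels.

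Values are TPM, a share of all transcripts of a library that corrects for transcript length, so levels of different genes can be compared. The rows given summed to 730832 to 821967 TPM in the overexpression libraries and to 814208 to 846780 TPM in controls, and sequencing depth is unknown. Klf5 was at 53.6 to 93.0 TPM in the overexpression libraries and at 0.371 to 1.29 TPM in controls, a log2 fold change of 5.36 ± 0.19 (SE). Its two-sided exact permutation p was 0.00216, the smallest that 5 against 6 libraries allow. Nestin, Sox2 and the 8 other neural progenitor markers checked were all past the filter on low values and summed to 3615 to 5589 TPM with overexpression and 4662 to 7765 TPM in controls. Of these 10 markers Vim rose, while Msi1 and Slc1a3 fell. In the limma test below, 6 of the 10 had an unadjusted p under 0.05, as did 12.6% of all tested genes. Fabp7, the highest of them, averaged 2105 TPM with overexpression and 3596 TPM in controls and did not pass. A gene was tested if 5 or more libraries reached 1 TPM. This left 13549 genes for limma on log2(TPM + 1), and 504 of them, or 3.72%, changed at a Benjamini-Hochberg adjusted p under 0.05. Log2 fold changes are on this scale, as overexpression minus control. In bulk RNA, fewer cells of a type and less RNA per cell cannot be told apart.

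Of the 8 genes, all of which were tested, Igfbp5 rose 2.30-fold in mean TPM and Igfbp3 fell to 0.574 of its control mean, while the other 6 did not pass. Across all tested genes 2.29% were called higher and 1.43% lower. The promoters of Igfbp5 and Igfbp3 are printed because these genes passed in opposite directions and because Kruppel-like factors as a family are known to bind CACCC boxes and GC-rich DNA. The runs show the 250 bases before the RefSeq transcription start (GRCm38.p6, minus strand), with capitals at every match, on either strand, to CCNCNCCC or CACCC, where N is any base.

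Igfbp5 (chr1:72874866-72875115): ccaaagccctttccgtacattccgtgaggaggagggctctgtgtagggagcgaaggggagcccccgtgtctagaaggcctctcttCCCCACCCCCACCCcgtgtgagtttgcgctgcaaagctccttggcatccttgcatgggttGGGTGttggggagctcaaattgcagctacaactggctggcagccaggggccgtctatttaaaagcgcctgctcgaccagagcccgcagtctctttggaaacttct
Igfbp3 (chr11:7213924-7214173): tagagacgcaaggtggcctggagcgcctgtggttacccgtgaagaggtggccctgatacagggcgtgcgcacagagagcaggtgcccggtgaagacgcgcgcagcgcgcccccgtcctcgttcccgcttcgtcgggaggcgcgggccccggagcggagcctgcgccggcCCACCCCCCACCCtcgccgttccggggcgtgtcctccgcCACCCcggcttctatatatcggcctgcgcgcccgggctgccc

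The Igfbp5 window held 3 matches to CCNCNCCC and 3 to CACCC, of which 2 lie inside a longer match, and the Igfbp3 window held 2 and 3, of which 2 lie inside a longer match. Such matches were common, with at least 1 CCNCNCCC in 45.9% and at least 1 CACCC in 52.0% of 32851 RefSeq promoter windows of the same length. Of the 8 genes, 7 had an entry in the promoter table, and Insr had none. The more upstream of 2 Igfbp2 windows held 16 matches to CCNCNCCC in its runs of G, the Irs2 window 10, the Igfbp4 window 4, the Irs1 window 3 and the Igf1r window 2, against a median of 0 over all windows, while the other Igfbp2 window held 1. CACCC matched 1 time in the more upstream Igfbp2 window, 2 times in the other, 1 time each in the Igfbp4 and Irs1 windows and 0 times in the Irs2 and Igf1r windows, against a median of 1 over all windows. GC content was 73.2% in the Igfbp3 window and 58.8% in the Igfbp5 window, against a median of 52.4% over all windows. It was 77.6% in the Igf1r window, 72.8% in Irs2, 72.4% in Irs1 and 69.2% in Igfbp4. The more upstream Igfbp2 window had 67.2% and the other 56.4%. These matches describe the letters only, and no binding was measured.

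Igfbp5 encodes a binding protein that also attaches to extracellular matrix. Its level in the 5 overexpression libraries was 37.7, 72.5, 44.0, 35.7 and 21.96 TPM, against 17.6, 11.5, 26.1, 20.97, 20.1 and 14.3 TPM in the 6 controls. Overexpression library 2 was the highest of all, 4 of 5 overexpression libraries lay above every control, and overexpression library 5 lay among the controls. Overexpression libraries averaged 42.4 ± 18.7 TPM (SD, n = 5), and controls averaged 18.4 ± 5.18 TPM (SD, n = 6). On the log2 scale Igfbp5 rose by 1.10 ± 0.25 (SE), with a 95% interval of 0.57 to 1.63 and a limma adjusted p of 0.0191. With each library left out in turn the adjusted p ranged from 0.00471 to 0.0477, so the call held in all 11 such fits. It was lost when no filter on low values was used (limma adjusted p = 0.112).

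Igfbp3 encodes the binding protein that carries most IGF in adult blood. Its level in the overexpression libraries was 149, 109, 123, 150.4 and 119.7 TPM, against 274, 286, 212, 167, 159.8 and 263 TPM in controls. The groups did not overlap, with every overexpression library below the lowest control, as in 1.31% of all tested genes, and 3.29% did not overlap in either direction. Overexpression libraries averaged 130.2 ± 18.7 TPM (SD, n = 5), against 227 ± 55.4 TPM (SD, n = 6) for controls, so the spread was wider in controls. This is a log2 fold change of -0.77 ± 0.16 (SE), with a 95% interval of -1.12 to -0.42 and a limma adjusted p of 0.0125. With each library left out in turn the adjusted p stayed between 0.00527 and 0.0377, and the call ended at 0.0695 when no low genes were removed.

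Igfbp2 encodes the binding protein most known from fetal brain and cerebrospinal fluid, and was the highest of the 8 genes in every library. It stood at 977, 454, 776, 689 and 641 TPM with overexpression, against 822, 535, 576, 479, 603 and 715 TPM in controls. The groups overlapped over most of their range, and overexpression library 1 was the highest and overexpression library 2 the lowest library of the study. Its log2 fold change was 0.17 ± 0.18 (SE), with a 95% interval of -0.22 to 0.55 that spans 0 (limma adjusted p = 0.846).

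Igfbp4 encodes a binding protein known mainly as an inhibitor of IGF action. Its level was 26.6, 35.0, 60.5, 74.7 and 50.5 TPM with overexpression, against 48.7, 62.2, 76.0, 49.3, 67.6 and 78.6 TPM in controls. Overexpression libraries 1 and 2 lay below every control and the other 3 lay among them. Its log2 fold change was -0.43 ± 0.22 (SE), and the 95% interval ran from -0.90 to 0.05 (limma adjusted p = 0.487).

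**Figure D1:**
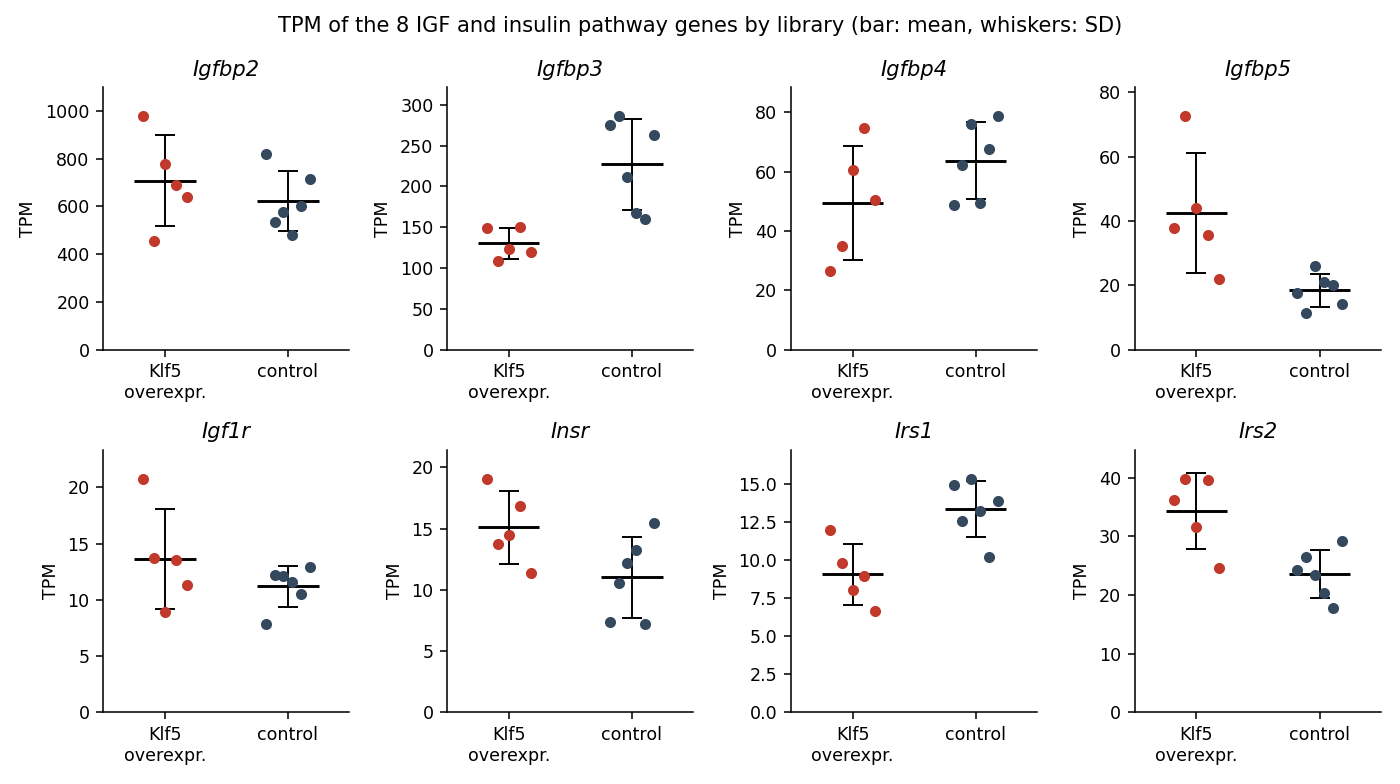
TPM (linear axes from 0) of the 8 genes in each library, with Klf5 overexpression (n = 5) left and control (n = 6) right; points are libraries, bars are means and whiskers are SD. Igfbp3 shows no overlap between groups (at most 150.4 TPM against at least 159.8 TPM), and Igfbp5 and Irs2 each have 4 of 5 overexpression libraries above every control.

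Summed over the 4 binding protein genes, the level averaged 930 ± 194 TPM (SD, n = 5) in overexpression libraries, against 931 ± 161 TPM (SD, n = 6) in controls, while the make-up of that sum differed. Igfbp3 gave 12.2 to 16.2% of it in the overexpression libraries and 18.8 to 31.9% in controls, with no overlap. Igfbp2 gave 67.7 to 82.05% with overexpression and 59.8 to 70.9% in controls. The Igfbp5 share was 2.63 to 10.8% with overexpression and 1.29 to 2.93% in controls, and the Igfbp4 share was 2.23 to 7.86% with overexpression and 4.18 to 8.53% in controls. These shares do not depend on how a library was scaled, but they rest on the same TPM as the calls above and are given as a description. Igfbp2 exceeded Igfbp5 6.27 to 29.2-fold within overexpression libraries and 22.1 to 50.02-fold within controls.

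Igfbp2 and Igfbp5 are neighbours on chromosome 1 of GRCm38. Igfbp2 lies at 72824503 to 72852474 on the plus strand and Igfbp5 at 72857932 to 72874884 on the minus strand, so their 3' ends face each other across 5.46 kb with 0 protein-coding genes between. Igfbp3 (chromosome 11, 7206086 to 7213923, minus strand) lies 3.54 kb from Igfbp1, which was listed at 0 in all 11 libraries. Igfbp4 lies elsewhere on chromosome 11 (99041244 to 99054392, plus strand). No other gene row overlaps any of the 4 binding protein genes.

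Igf1r, the main receptor for both IGF ligands, was at 20.7, 13.7, 8.90, 13.6 and 11.3 TPM with overexpression, against 7.88, 12.2, 12.1, 11.6, 10.5 and 12.9 TPM in controls. Overexpression library 1 was the highest, libraries 2 and 4 lay just above the highest control, and libraries 3 and 5 lay among the controls. Its log2 fold change was 0.23 ± 0.19 (SE), with a 95% interval of -0.18 to 0.64 (limma adjusted p = 0.764).

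Insr, the insulin receptor gene, was at 19.05, 13.8, 14.5, 16.8 and 11.4 TPM with overexpression, against 7.36, 10.6, 12.2, 13.3, 7.24 and 15.48 TPM in controls. All 5 overexpression libraries lay above the control mean of 11.01 ± 3.29 TPM (SD, n = 6), but 2 alone lay above every control. The log2 fold change of 0.45 ± 0.20 (SE) had a 95% interval of 0.02 to 0.88 and did not pass (limma adjusted p = 0.358). The Igf1r level was 0.615 to 1.09 times the Insr level within overexpression libraries and 0.832 to 1.45 times within controls, with wide overlap. Igf1r lies on chromosome 7 (67952827 to 68233668, plus strand) and Insr on chromosome 8 (3122061 to 3279617, minus strand), and the 2 annotated rows that overlap Insr were at 0 in all libraries.

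Irs2, a docking protein that couples both receptors to PI3-kinase, was at 36.2, 39.8, 31.6, 39.6 and 24.5 TPM with overexpression, against 24.3, 26.5, 23.4, 20.3, 17.7 and 29.2 TPM in controls. As for Igfbp5, 4 of 5 overexpression libraries lay above every control, and overexpression library 5 lay among the controls. Overexpression libraries averaged 34.3 ± 6.42 TPM (SD, n = 5) and controls 23.6 ± 4.13 TPM (SD, n = 6), and the log2 fold change of 0.52 ± 0.16 (SE) had a 95% interval of 0.19 to 0.86. This did not pass over all genes (limma adjusted p = 0.0955). Of the 11 fits that left out a library, Irs2 passed in 1, without overexpression library 5 (limma adjusted p = 0.026). In the rest of these fits the limma adjusted p reached up to 0.236. Irs2 passed under each of the 3 scalings tried (limma adjusted p of 0.0214 to 0.0256), and in 5 of 10 fits with other settings, these scalings included.

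Irs1, the related docking protein of the same receptors, had lower values in most overexpression libraries. Its level was 11.9, 9.79, 8.01, 8.94 and 6.62 TPM with overexpression, against 14.9, 12.5, 15.3, 13.2, 10.2 and 13.9 TPM in controls. Here 4 of 5 overexpression libraries lay below every control, and overexpression library 1 lay above control library 5. Overexpression libraries averaged 9.05 ± 1.99 TPM (SD, n = 5) and controls 13.3 ± 1.85 TPM (SD, n = 6). The log2 fold change of -0.52 ± 0.17 (SE) had a 95% interval of -0.88 to -0.17 and did not pass (limma adjusted p = 0.117).

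The ratio of Irs1 to Irs2 within a library does not depend on scaling. It was 0.329, 0.246, 0.254, 0.226 and 0.270 in the overexpression libraries, against 0.614, 0.473, 0.655, 0.650 and 0.575 in control libraries 1 to 5 and 0.476 in control library 6. The groups did not overlap, and the means were 0.265 ± 0.0392 (SD, n = 5) with overexpression and 0.574 ± 0.082 (SD, n = 6) in controls. On the log2 scale the difference of means was -1.11, and it lay between -1.20 and -1.06 with each library left out in turn. The sum of both genes was 31.2 to 49.6 TPM with overexpression and 27.9 to 43.05 TPM in controls. No test was run on this ratio, which joins genes that leaned in opposite directions and each did not pass. The Igf1r to Insr and Igfbp2 to Igfbp5 ratios overlapped between groups. How often ratios of other gene pairs separate the groups was not counted. Irs1 lies on chromosome 1 (82233101 to 82291416, minus strand) and Irs2 on chromosome 8 (10984681 to 11008458, minus strand). Each overlaps 1 row on the opposite strand, Gm9747 and 9530052E02Rik, whose highest values in any library were 0.780 and 0.319 TPM.

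**Figure D2:**
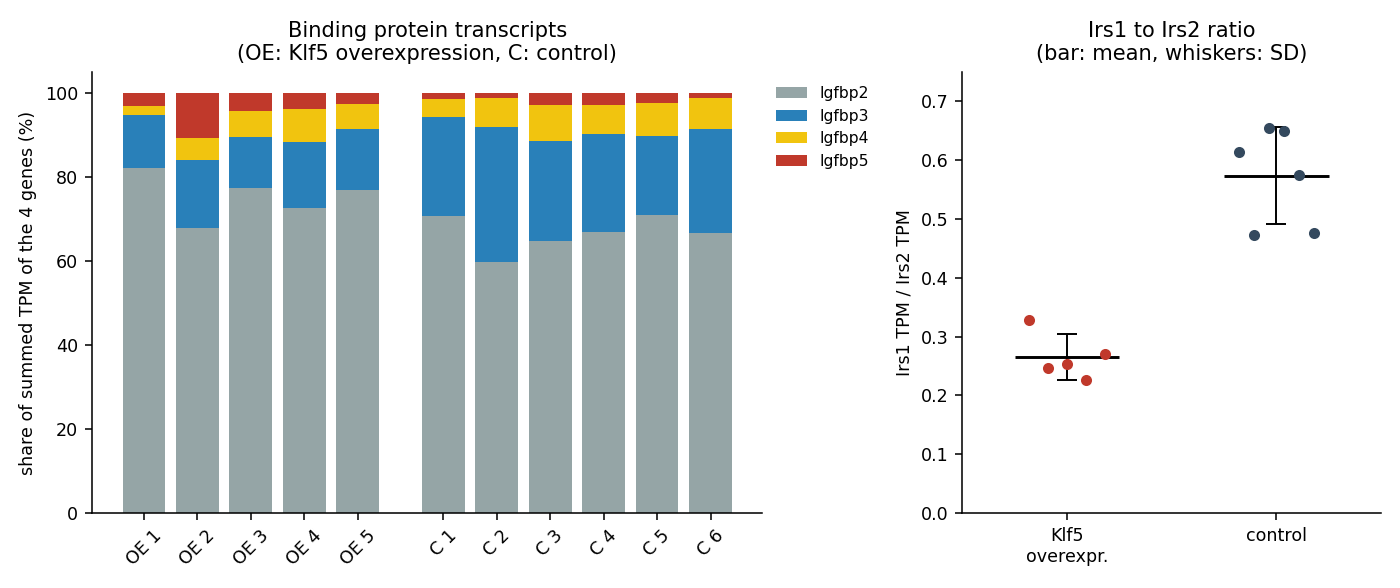
Left, the share (percent) of each of the 4 binding protein genes in their summed TPM, 1 bar per library, with Klf5 overexpression (OE) left of control (C); right, the Irs1 to Irs2 ratio of TPM by library with mean and SD. Igfbp3 takes at most 16.2% in overexpression libraries and at least 18.8% in controls, and the Irs1 to Irs2 ratio is at most 0.329 with overexpression and at least 0.473 in controls.

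In both groups Igfbp2 had the highest TPM, then Igfbp3, then Igfbp4, and the receptors and Irs1 the lowest. In controls Igfbp2 (622 TPM), Igfbp3 (227 TPM), Igfbp4 (63.7 TPM) and Irs2 (23.6 TPM) followed each other with no overlap between neighbours. Below these, Irs2 and Igfbp5 (18.4 TPM) overlapped, as did Igfbp5 and Irs1 (13.3 TPM), Irs1 and Igf1r (11.2 TPM), and Igf1r and Insr (11.01 TPM). In the overexpression libraries Igfbp2 (708 TPM) and Igfbp3 (130.2 TPM) again stood apart, and Igfbp4 (49.5 TPM), Igfbp5 (42.4 TPM) and Irs2 (34.3 TPM) overlapped in sequence. Irs2 stood above Insr (15.1 TPM) without overlap, and Insr, Igf1r (13.6 TPM) and Irs1 (9.05 TPM) overlapped in sequence. Against all tested genes, the mean of Igfbp5 was higher than that of 79.3% with overexpression and 56.9% in controls, and that of Irs1 than 37.5% with overexpression and 47.6% in controls.

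Scaling of the libraries touched the smaller differences. Of the 8 genes, Igfbp5, Insr, Irs1 and Irs2 had their lowest overexpression value in library 5, whose median-of-ratios factor, a library-wide scale relative to the other libraries, was 0.828, the lowest of the 11, while overexpression library 1 had the highest at 1.17. After division by these factors, Igfbp5 was at 26.5 to 82.2 with overexpression and 11.01 to 24.9 in controls, Igfbp3 at 116 to 145 with overexpression and 153 to 299 in controls, and Irs2 at 29.7 to 45.1 with overexpression and 18.6 to 26.5 in controls, in scaled TPM. These 3 genes then showed no overlap between groups, as did 5.11% of all tested genes, and the same 3 passed the limma test, as did 5.4%. Irs2 then had a log2 fold change of 0.56 ± 0.13 (SE). For Irs1 the scaled groups met, with 7.58 to 11.09 under overexpression and 11.07 to 16.2 in controls, and the limma adjusted p was 0.0505. Scaled Insr was at 13.7 to 16.3 with overexpression and 7.87 to 13.8 in controls (limma adjusted p = 0.072). The direction of all 8 genes was kept, and the median log2 fold change of all tested genes was -0.04 as deposited and -0.0028 after scaling.

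**Figure D3:**
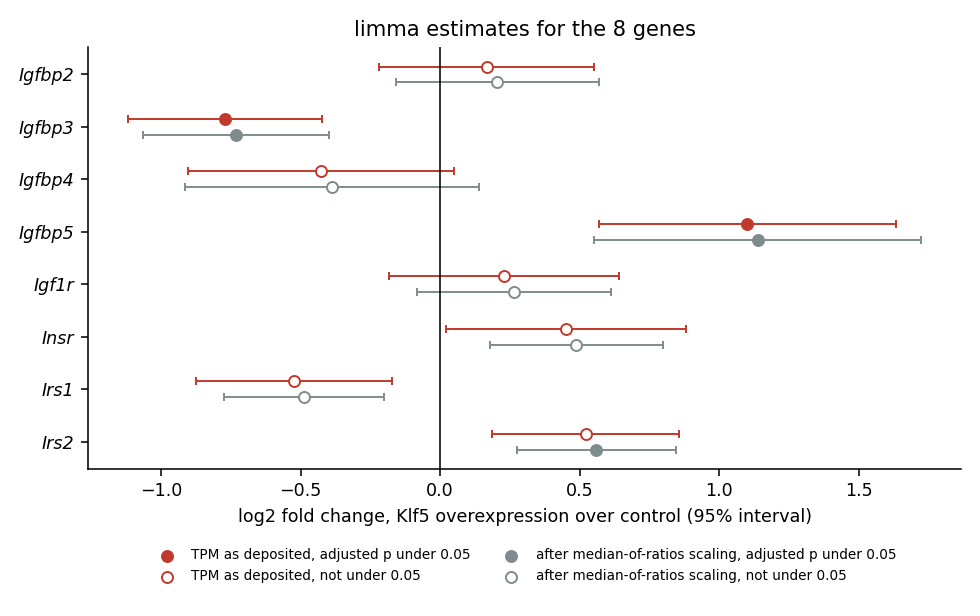
Log2 fold change of each gene, Klf5 overexpression over control (x axis), with 95% intervals, for TPM as deposited and after median-of-ratios scaling; filled points had a limma adjusted p under 0.05. Igfbp5 (1.10) and Igfbp3 (-0.77) are filled as deposited, and Irs2 joins them after scaling.

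As a group the 8 genes had 5 log2 fold changes above 0 and 3 below, with a median of 0.20 against -0.04 over all tested genes. Their median absolute log2 fold change was 0.49, against 0.15 over all tested genes. An unadjusted p under 0.05 was reached by 5 of the 8 and by 12.6% of all tested genes. The members were named with earlier results of these data known, so these figures describe the genes and are not a test.

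The genes nearest in pattern were found by the root mean square difference of standardised log2 levels over the 11 libraries, group difference included. For Igfbp5 these were Kif19a, a kinesin gene (0.288), Jup, which encodes junction plakoglobin (0.329), and Cap2, which encodes an actin-binding protein (0.417). Like Igfbp5, Kif19a, Jup and Cap2 were highest in overexpression library 2, at 6.20, 18.6 and 29.0 TPM. Among overexpression libraries they were lowest in library 5, at 1.64, 3.65 and 15.2 TPM. Kif19a, at 0.0950 to 1.30 TPM in controls, met the filter on low values through the overexpression libraries. For Igfbp3 they were Cacng8, an AMPA receptor auxiliary subunit gene (0.245), Cdr2 (0.256) and Slc41a2, a magnesium transporter gene (0.284). Among the other 7 genes, Irs2 was nearest to Igfbp5 (0.807) and Irs1 to Igfbp3 (0.620), while Igfbp3 and Igfbp5 were 1.81 apart.

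Of the ligand genes, Igf2 alone was past the filter on low values, which it met through the overexpression libraries, where it is high. It was at 2.04, 2.55, 1.52, 1.99 and 1.83 TPM with overexpression, against 0.497, 1.74, 0.214, 0.244, 0.310 and 0.419 TPM in controls. Control library 2 lay among the overexpression libraries and the other 5 controls lay below all of them. The log2 fold change was 0.98 ± 0.25 (SE). Because the group where Igf2 is high let it into the test, its limma adjusted p of 0.0414 is given as a description and is not read as support for a change. Without a filter the limma adjusted p was 0.0636, and it was under 0.05 in 1 of 11 fits that left out a library, the one without control library 2 (limma adjusted p = 0.00968). Gm49394, a row on the same strand that overlaps Igf2, was at 1.66 to 3.28 TPM with overexpression and 0.480 to 1.14 TPM in controls, so reads of the 2 rows may be mixed. Igf1 stood at 0.0736 to 0.200 TPM with overexpression and 0.140 to 0.749 TPM in controls. Ins1 was listed at 0 throughout and Ins2 reached at most 0.587 TPM.

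Markers of leptomeningeal, vessel and choroid plexus cells, known sources of Igf2 and binding proteins, were at low TPM, as was Igf2 itself. The 7 leptomeningeal and fibroblast markers summed to 0.576 to 2.58 TPM with overexpression and 0.323 to 0.889 TPM in controls, with Dcn and Lum at 0 in every library. For 5 mural markers the sums were 1.14 to 2.53 TPM with overexpression and 1.004 to 5.44 TPM in controls, with Kcnj8 at 0. For 5 endothelial markers they were 0.285 to 0.636 TPM with overexpression and 0 to 1.06 TPM in controls. The 6 choroid plexus markers summed to 1.49 to 5.63 TPM with overexpression and 0.0102 to 0.720 TPM in controls, with no overlap. Of these Aqp1, a water channel gene also used by other cells, had means of 2.84 TPM with overexpression and 0.242 TPM in controls and met the filter through the overexpression libraries alone, while Ttr, the defining marker, was at 0 in every library. Microglia markers (6 genes) reached at most 1.99 TPM and erythroid markers (5 genes) at most 0.113 TPM. Of 6 neuronal markers none passed in limma, with 2 at an unadjusted p under 0.05 and sums of 195 to 307 TPM with overexpression and 224 to 336 TPM in controls. Among 6 oligodendrocyte lineage markers, which summed to 1693 to 2062 TPM with overexpression and 1645 to 2843 TPM in controls, Cspg4 rose. Among 5 astrocyte markers, at 47.9 to 100.1 TPM with overexpression and 76.8 to 120.4 TPM in controls, Aldh1l1 fell, and S100b met the filter through the overexpression libraries, where it was higher. The part of any of these cell types in the values of the 8 genes was not tested.

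The other receptor genes and binding proteins added little. Igf2r, which takes up Igf2 for breakdown, was at 10.96, 10.8, 9.54, 7.82 and 2.13 TPM with overexpression, against 2.80, 3.56, 3.39, 2.66, 7.28 and 10.4 TPM in controls (limma adjusted p = 0.579). Its libraries were split within both groups, and the imprinted antisense RNA Airn overlaps it. Insrr, Igfbp1 and Igfals, which encodes the third partner of the Igfbp3 complex in blood, were listed at 0 in all libraries. Igfbp6 reached at most 0.745 TPM and Igfbp7 at most 1.38 TPM.

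Among genes that act on binding proteins, Htra1, a secreted serine protease known from human cells to cut the protein of the Igfbp5 gene, fell to 16.3, 0.844, 9.08, 3.46 and 5.34 TPM with overexpression, against 33.2, 20.9, 22.5, 28.02, 18.3 and 21.2 TPM in controls. Every overexpression library lay below every control, as in 1.31% of all tested genes. This is a log2 fold change of -1.99 ± 0.41 (SE, limma adjusted p = 0.00891). Overexpression library 2, with the highest Igfbp5, had the lowest Htra1. The other overexpression libraries kept no single order in TPM. Libraries 1 and 3 had more of both genes than libraries 4 and 5. Yet library 3 had more Igfbp5 and less Htra1 than library 1, as did library 4 against library 5. A relation between the 2 genes was not tested. Htra1 overlaps Fgfr2 on the opposite strand, which was at 4.07 to 10.6 TPM with overexpression and 6.19 to 15.3 TPM in controls. The strand setting is not known, so reads of the 2 rows may be mixed. Without a filter on low values the call of Htra1 was lost (limma adjusted p = 0.0833). Pappa and Pappa2, which encode proteases of binding proteins, reached at most 0.102 TPM and 0.0253 TPM. Their inhibitors Stc1 and Stc2 did not pass, with means of 1.45 and 7.30 TPM under overexpression and 1.88 and 9.70 TPM in controls.

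Downstream of the receptors no tested gene passed in limma. An unadjusted p under 0.05 was reached by 4 (Gab1, Pik3r3, Inppl1 and Bcl6), and by 12.6% of all tested genes. Under each of the 3 scalings Bcl6 was called beside Igf2 and Htra1. Over all pathway lists, which hold 76 genes beside the 8, 58 were tested. Of these, 3.45% had a limma adjusted p under 0.05, against 3.72% of all tested genes. They were Htra1 and Igf2, and Igf2 met the filter through its overexpression libraries. None of 12 receptor adaptors and inhibitors passed in limma, led by Gab1 (33.9 TPM with overexpression, 42.6 TPM in controls, limma adjusted p = 0.277), and Sos1 and Shc1 had adjusted p of 0.442 and 0.503. Of 14 PI3-kinase and Akt genes the smallest adjusted p were those of Pik3r3, a PI3-kinase regulatory subunit (33.1 TPM with overexpression and 25.7 TPM in controls, 0.327) and the lipid phosphatase gene Inppl1 (0.343). Of 11 TSC and mTOR genes Mlst8 (0.783), Eif4ebp1 (0.863) and Rps6kb1 (0.868) led, with log2 fold changes of the whole list between -0.28 and 0.18.

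FoxO factors and genes known as their targets in other tissues were not called either. Foxo3, Foxo1 and Foxo6 had limma adjusted p of 0.574, 0.822 and 0.950. Of 10 tested FoxO targets, 7 lay above 0, with a median log2 fold change of 0.28, against -0.04 over all tested genes. The smallest adjusted p was that of Bcl6, a transcriptional repressor, at 18.9 TPM with overexpression and 14.2 TPM in controls (0.256), before Gadd45a (0.439) and Cited2 (0.442). The mRNA-binding proteins Igf2bp2 and Igf2bp3 stood at 3.89 and 29.9 TPM with overexpression and 4.86 and 30.6 TPM in controls, with adjusted p of 0.847 and 0.969.

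**Figure D4:**
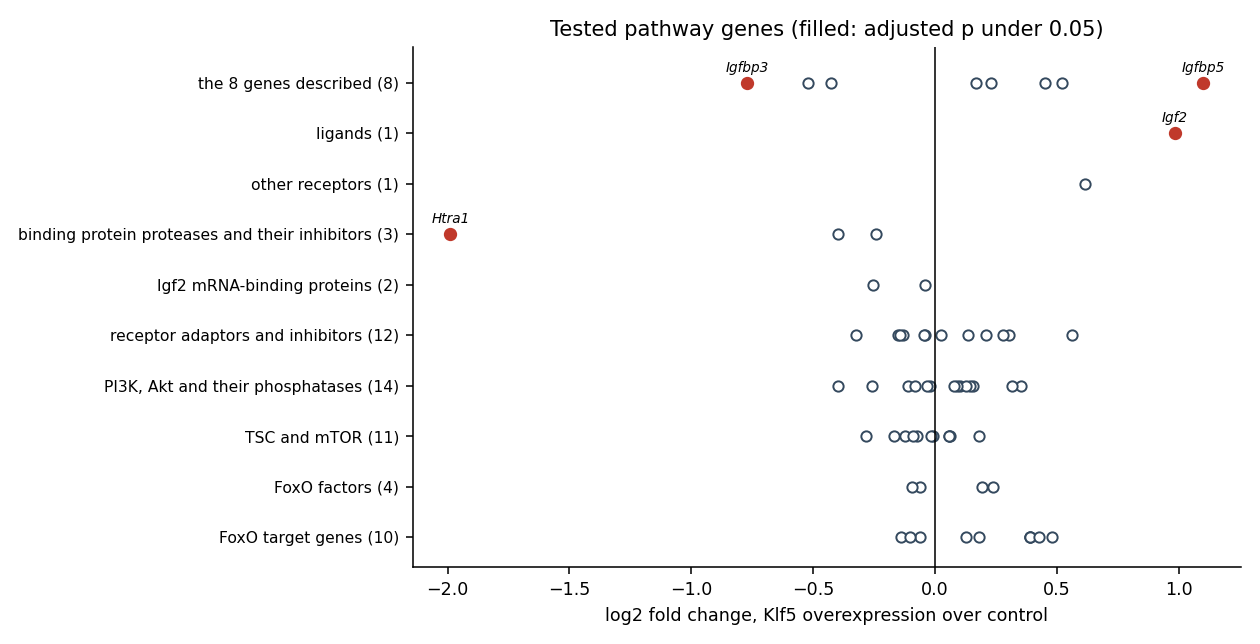
Log2 fold change, Klf5 overexpression over control (x axis), of every tested gene in each pathway list (rows, with the number tested); filled red points had a limma adjusted p under 0.05. The filled points in the top row are Igfbp5 (1.10) and Igfbp3 (-0.77). Those below are Igf2 (0.98) in the ligand row and Htra1 (-1.99) in the row of binding protein proteases and their inhibitors. Igf2 met the filter through its overexpression libraries.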

How the data were processed

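RNA sequencing of total RNA from mouse E15.5 primary neurospheres gave 1 table of TPM, made by the authors before deposit, with 5 Klf5 overexpression and 6 control libraries as columns. The submitters' processing notes name HISAT2, StringTie, HTSeq, DESeq2 and the build GRCm38.p5. The sources used here do not say what each tool did, which annotation release and strand setting were used, or which of 2 library kits made which library, so rows that overlap on either strand may share reads. TPM divides by the library total, so a change in abundant transcripts moves all values, and it keeps no depth.

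Symbols were matched from a gene name list (53255 of 53453 rows), and gene coordinates came from GENCODE M21 on GRCm38. A gene entered the test when 5 or more libraries reached 1 TPM (13549 genes). The test was run in limma 3.58.1 (R 4.3.3) on log2(TPM + 1) with a variance trend, two-sided, with Benjamini-Hochberg adjustment over all tested genes at 0.05. The fit was checked on simulated data. Other values used Python 3.11.15. Promoter sequences are from RefSeq (GRCm38.p6).

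The 8 genes, pathway lists and markers were chosen with earlier results of these data known. Beside the 8 genes and Klf5, the text names all ligands, other receptors and other binding proteins, every called pathway gene, up to 3 genes per list with the smallest p (1 such gene is not reported here), and the 3 genes nearest in pattern to the 2 members with the smallest p in each direction. Alternatives tried were 3 rescalings, a filter of 5 TPM or none, a pseudocount of 0.1, no variance trend, array weights, the replicate number as a block, and leaving out each library.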

Additional observations from a re-analysis of the deposited data

Results flagged for a closer look

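Of 78 groups of 5 or 6 libraries checked among the named genes, ratios and shares, 2 held a library far from the others by Dixon's test, which chance alone flags in about 1 in 20 groups. Igf2 was at 1.74 TPM in control library 2, against 0.214 to 0.497 TPM in the other 5 controls. Igfbp5 made up 10.8% of the summed binding protein TPM in overexpression library 2, against 2.63 to 4.39% in the other 4 overexpression libraries. That library also had the lowest Igfbp2 (454 TPM) and Htra1 (0.844 TPM) among the overexpression libraries, and a relation between these genes was not tested.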

How the results depend on the processing

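The count of changed genes was 386 to 496 with each library left out and 349 to 732 in the other fits, against 504. Of the 8 genes, 2 were called as reported, 2 to 3 with a library left out, 0 when low genes were kept, and 4 with quantile normalization or array weights, where Irs1 and Irs2 joined. Without a filter, log2 fold changes were kept at -0.77 for Igfbp3 (limma adjusted p = 0.0695) and 1.10 for Igfbp5 (0.112) over 28101 genes tested; the cause was not tested. Irs2 passed in 5 of the 10 other fits. In those 5 its log2 fold change was 0.56 after median-of-ratios scaling, 0.56 after quantile normalization and 0.57 without mitochondrial and ribosomal RNA-like rows. It was 0.55 with array weights and 0.58 with the replicate block. With a library left out the log2 fold change of Irs2 ranged from 0.45 to 0.63, and Irs2 passed in 1 of 11 such fits. Irs1 passed with -0.50 after quantile normalization (0.0381) and -0.56 with array weights (0.0409). The number of called pathway genes, 2 as reported, was 1 with a pseudocount of 0.1, with the replicate block and with its 10 libraries without the block. It was 0 without a filter and 1 to 2 with a library left out, and the cause was not tested. With a filter of 5 TPM it was 1, as Igf2, at most 2.55 TPM, did not enter that test. Igf2 was lost in each fit but 1 of those with a library left out (log2 fold changes of 0.92 to 1.16) and in 4 of 9 others. No direction of the 8 genes was reversed in any of these fits.

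Deviations of same-numbered libraries correlated at 0.304 for number 1 and at -0.0398 to 0.0638 for numbers 2 to 5. Differently numbered libraries were not compared, so these values do not settle whether the replicate numbers pair the libraries. With the replicate block, fitted on 10 libraries, 420 genes were called, Igfbp5 stood at 1.04 (limma adjusted p = 0.0764, 0.046 in the same libraries without the block) and Igfbp3 at -0.72 (0.0407). TPM without depth leaves the counting error of low genes such as Igf2 unknown.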
